A study of Mus musculus with 57 samples.

Results

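The widest H3K27me3 domains of gastrocnemius, the main calf muscle of the mouse, were described here. Peaks of the 10 gastrocnemius H3K27me3 libraries on chromosomes 1 to 19 were merged wherever they overlapped, which gave 41034 regions, and 6984 of these held a peak in all 10 libraries. These were ranked by the median over libraries of the width of the widest peak inside the region, and the first 300 were taken, 4.30% of the regions called in every library. The width of gastrocnemius H3K27me3 peaks therefore chose the domains, and all values of that mark in that tissue are given as a description with no test.

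All libraries came from PSAPP mice, a transgenic line that models Alzheimer's disease, killed at 13 months of age, so that every group carried the transgenes and no non-transgenic mice were compared. H3K4me3, H3K27ac and H3K27me3 were each profiled by chromatin immunoprecipitation and sequencing in gastrocnemius (10 libraries per mark) and in brain cortex (9 libraries per mark). Single housing and a purified ration based on AIN-93 began at 6 months in every group. The tissues were processed whole, and fewer cells of a type cannot be told apart from less of a mark per cell.

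H3K27me3 is the trimethylation of lysine 27 on histone H3, written by the enzyme subunits EZH1 and EZH2 of Polycomb repressive complex 2, and it marks genes that are kept silent. It lies over developmental regulators such as the Hox clusters in most tissues where they are not used. H3K4me3 marks promoters and is deposited at CpG-rich DNA. H3K27ac marks active promoters and enhancers and occupies the same lysine as H3K27me3, so a histone tail cannot carry both. Promoters at which H3K4me3 and H3K27me3 are found together are called bivalent, a state known best from stem cells.

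Transcription start sites (TSSs) inside the domains fell into distinct H3K4me3 classes. Promoters of each class are shown as the 250 bases before the annotated TSS, 5′ to 3′ on the strand of the gene, from RefSeq on GRCm38.p6, the assembly also named mm10. CpG dinucleotides are in capitals. Pax7, which encodes the transcription factor that marks muscle satellite cells, and Hoxd10 had an H3K4me3 peak in all 10 gastrocnemius and in 0 of 9 cortex libraries. Slc12a5, the neuronal chloride exporter KCC2, and Srrm4, a neuronal splicing regulator, had the reverse pattern. Cdh22, a cadherin, and Ticrr, a replication factor, were called in every library of both tissues. Ttll6, a tubulin ligase, and Krt2, an epidermal keratin, were called in none.
Pax7, chr4:139832969-139833218, minus strand: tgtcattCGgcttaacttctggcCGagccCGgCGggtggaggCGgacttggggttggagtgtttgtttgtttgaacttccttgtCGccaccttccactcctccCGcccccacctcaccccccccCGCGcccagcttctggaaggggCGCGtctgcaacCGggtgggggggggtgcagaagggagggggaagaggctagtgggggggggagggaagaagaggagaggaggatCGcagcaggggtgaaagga
Hoxd10, chr2:74691641-74691890, plus strand: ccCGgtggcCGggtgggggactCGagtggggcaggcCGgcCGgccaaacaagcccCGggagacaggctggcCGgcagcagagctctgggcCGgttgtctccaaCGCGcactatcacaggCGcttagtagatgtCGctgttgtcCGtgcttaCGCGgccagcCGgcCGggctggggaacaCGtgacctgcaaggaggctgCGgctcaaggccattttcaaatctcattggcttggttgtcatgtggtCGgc
Slc12a5, chr2:164967738-164967987, plus strand: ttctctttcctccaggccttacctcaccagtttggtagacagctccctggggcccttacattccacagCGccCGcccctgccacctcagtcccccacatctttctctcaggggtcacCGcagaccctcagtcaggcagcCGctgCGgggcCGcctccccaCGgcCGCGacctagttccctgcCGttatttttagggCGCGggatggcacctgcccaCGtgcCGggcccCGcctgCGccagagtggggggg
Srrm4, chr5:116591818-116592067, minus strand: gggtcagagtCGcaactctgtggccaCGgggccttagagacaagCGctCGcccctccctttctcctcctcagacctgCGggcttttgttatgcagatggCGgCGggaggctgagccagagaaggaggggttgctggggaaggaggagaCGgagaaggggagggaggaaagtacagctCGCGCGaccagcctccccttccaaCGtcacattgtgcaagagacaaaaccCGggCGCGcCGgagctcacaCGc
Cdh22, chr2:165234738-165234987, minus strand: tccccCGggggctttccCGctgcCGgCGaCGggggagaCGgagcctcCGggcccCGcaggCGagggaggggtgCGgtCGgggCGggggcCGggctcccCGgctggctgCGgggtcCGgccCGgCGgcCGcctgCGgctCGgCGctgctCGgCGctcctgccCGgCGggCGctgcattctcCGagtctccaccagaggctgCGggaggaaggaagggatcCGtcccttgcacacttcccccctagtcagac
Ticrr, chr7:79659946-79660195, plus strand: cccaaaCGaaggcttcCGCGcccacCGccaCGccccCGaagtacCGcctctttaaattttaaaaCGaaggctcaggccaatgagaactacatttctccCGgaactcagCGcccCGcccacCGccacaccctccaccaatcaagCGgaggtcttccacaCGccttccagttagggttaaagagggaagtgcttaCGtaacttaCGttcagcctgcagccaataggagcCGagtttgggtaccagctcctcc
Ttll6, chr11:96133536-96133785, plus strand: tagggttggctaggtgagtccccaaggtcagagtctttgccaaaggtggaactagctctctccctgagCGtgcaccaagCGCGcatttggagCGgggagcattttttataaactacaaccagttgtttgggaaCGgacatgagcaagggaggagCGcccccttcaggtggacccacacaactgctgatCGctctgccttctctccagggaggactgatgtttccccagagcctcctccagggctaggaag
Krt2, chr15:101818170-101818419, minus strand: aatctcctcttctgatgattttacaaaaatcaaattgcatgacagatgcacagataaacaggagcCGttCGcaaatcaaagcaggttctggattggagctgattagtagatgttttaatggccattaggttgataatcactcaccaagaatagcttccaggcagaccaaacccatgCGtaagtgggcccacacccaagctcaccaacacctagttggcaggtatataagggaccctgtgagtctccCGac
Cdh22 held 30 CpGs in this window, a number reached by 7.41% of autosomal promoters. Hoxd10 held 20 (reached by 22.8%), Ticrr and Srrm4 17 each (29.9%), Slc12a5 16 (32.4%) and Pax7 13 (40.2%). Ttll6 held 7 (56.6%) and Krt2 held 4 (69.5%).

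The domains also held 47 of the 1136 autosomal miRNA loci (4.14%). The loci of several miRNA families recurred among them, and their mature sequences are shown with the seed, bases 2 to 8, in capitals.
miR-9-5p, from Mir9-1, Mir9-2 and Mir9-3: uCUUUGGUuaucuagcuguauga
miR-129-5p, from Mir129-1 and Mir129-2: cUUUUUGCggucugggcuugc
miR-10a-5p, from Mir10a: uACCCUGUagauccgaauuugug
miR-10b-5p, from Mir10b: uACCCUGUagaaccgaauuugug
miR-196a-5p, from Mir196a-1 and Mir196a-2: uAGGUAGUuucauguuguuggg
miR-9 and miR-129 are abundant in brain, whereas miR-10 and miR-196a are encoded within the Hox clusters. miR-10a-5p and miR-10b-5p shared the seed ACCCUGU.

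Reads in autosomal H3K27me3 peaks ranged from 2.99 to 18.2 M in gastrocnemius and from 3.90 to 6.35 M in cortex, where M stands for 1000000. The ranges were 9.03 to 14.8 and 9.32 to 18.6 M for H3K4me3, and 15.6 to 27.04 and 3.90 to 21.0 M for H3K27ac. Gastrocnemius replicate 5 was the deepest H3K27me3 library, and cortex replicate 9 was the shallowest H3K27ac library. TSSs of muscle fibre markers carried H3K4me3 and H3K27ac in every gastrocnemius library (10 of 10 genes, among them Acta1, Ckm and Myh4), and those of neuronal markers did so in every cortex library (8 of 8). H3K27ac was also called in every cortex library at 5 of the 10 muscle fibre markers (Acta1, Mylpf, Tnni2, Atp2a1 and Pvalb), and H3K4me3 at 1 (Pvalb). Of the marker genes of other cell types, H3K4me3 was called in every gastrocnemius library at 5 of 5 of endothelium, 3 of 3 of satellite cells, 4 of 5 of fibroblasts, 1 of 3 of adipocytes, 2 of 8 of neurons, 2 of 7 of astrocytes and oligodendrocytes, and 0 of 6 of microglia and macrophages and 0 of 2 of Schwann cells. The domain at Sfi1, on chromosome 11, stood apart from all others. It was covered by peaks of every mark in both tissues over 94.8 to 100% of its length in every library, and its H3K27me3 read density, 51.0 reads per kb per 1 M reads in peaks, was far above the 3.83 of the median domain. The site counts given without it were nearly the same (219 and 482 for H3K4me3, 162 and 1228 for H3K27ac).

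The median width of the widest peak ranged from 25.9 to 90.5 kb over the 300 domains, with a median of 32.3 kb. In the other 6684 regions called in all 10 libraries the median was 8.60 kb. The merged regions that hold these peaks were longer, 30.0 to 515.8 kb with a median of 117.4 kb, since most libraries called each domain as a string of peaks. Bases covered in at least 6 of the 10 libraries made up 36.0 of the 41.6 Mb of merged length, and are called the shared part below. The last domains inside the threshold measured 25.9 kb (25.899), among them those at Slc6a3 and Tafa5. The first regions outside it measured 25.8 kb (25.799), at chr4:45671401-45837200, chr5:129149601-129253800 and chr7:138952601-139033200.

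Widths differed between libraries. The median width per library was 20.6 kb in replicate 7, the lowest, and 68.1 kb in replicate 5, the highest, with the other 8 libraries between 21.5 and 42.6 kb. Replicate 5 gave the widest peak in 247 of the 300 domains. Within a domain the widest library exceeded the narrowest by 1.03 to 14.7 times, with a median of 4.70 times. The number of reads in peaks moved with the widths, and its part in them was not tested. The deepest libraries, replicates 5, 6, 9 and 10, were also the ones whose deposited names carry a run number. Depth and run number therefore cannot be told apart. Without replicate 5, 276 of the 300 domains were chosen again.

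**Figure D1:**
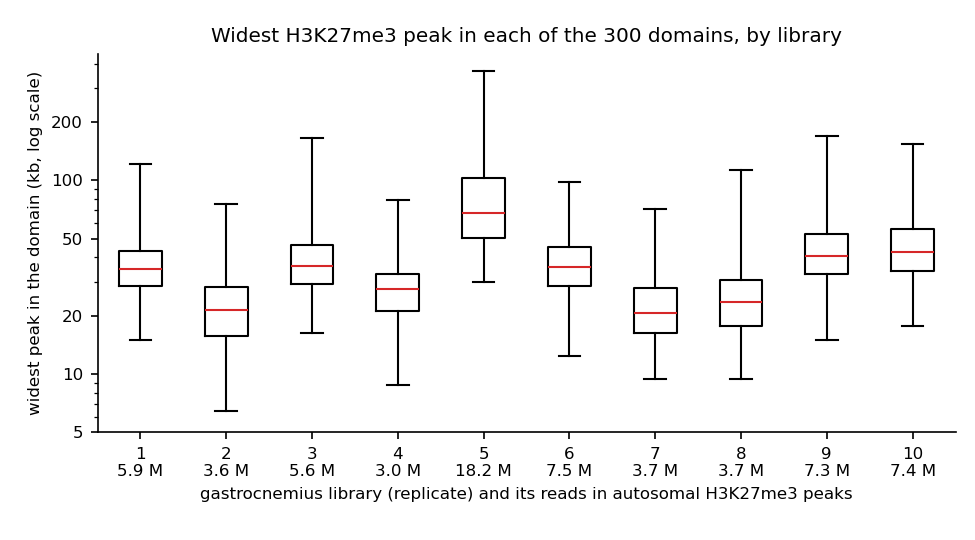
Width of the widest H3K27me3 peak in each of the 300 domains (kb, log scale) in each gastrocnemius library, with the library's reads in autosomal H3K27me3 peaks (M, 1000000 reads) under its number. Lines are medians, boxes quartiles and whiskers the lowest and highest domain; the median of replicate 5, 68.1 kb, lies above those of the other libraries (20.6 to 42.6 kb).

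The widest domain spanned chr11:118487201-118774800 (mm10) and held no TSS. It lay over 99.1% of its length within the transcript span of Rbfox3, which encodes the neuronal nuclear protein NeuN. Its widest peak measured 49.0 kb in the lowest, 90.5 kb in the median and 171.8 kb in the highest library. The TSS of Rbfox3 itself lay in a separate domain, ranked 115.

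The second domain, chr11:96119401-96519600, held the Hoxb cluster, whose homeodomain factors set position along the body axis. Its widest peak measured 42.4 kb in the lowest, 88.8 kb in the median and 274.8 kb in the highest library. The Hoxd cluster ranked 16th (27.6, 53.7 and 93.8 kb) and the Hoxc cluster 18th (20.8, 52.6 and 203.4 kb). Further developmental regulators among the 20 widest domains were Foxf1, Pax2, Barhl2, Dmbx1, Lhx5 and En2, all transcription factor genes. The Foxf1 domain measured 38.2, 65.6 and 168.8 kb in the lowest, median and highest library, and the Pax2 domain 34.8, 60.1 and 280.6 kb.

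Other domains of the 20 widest held genes of differentiated cells. The third held Cd40, a receptor of immune cells, and Cdh22 (46.4, 79.3 and 239.4 kb). The fourth, chr15:101809401-101946800, held 6 keratin genes (22.2, 73.3 and 128.6 kb). Grik3, a kainate receptor subunit, lay in the sixth (23.4, 68.1 and 160.4 kb), and the complement genes C1qa, C1qb and C1qc lay with the ephrin receptor genes Ephb2 and Epha8 in the 14th. The microRNA genes Mir9-3 and Mir9-1 lay in the seventh and the ninth. The Sfi1 domain, the fifth, was the one with the least spread, 70.8 to 72.8 kb.

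**Figure D2:**
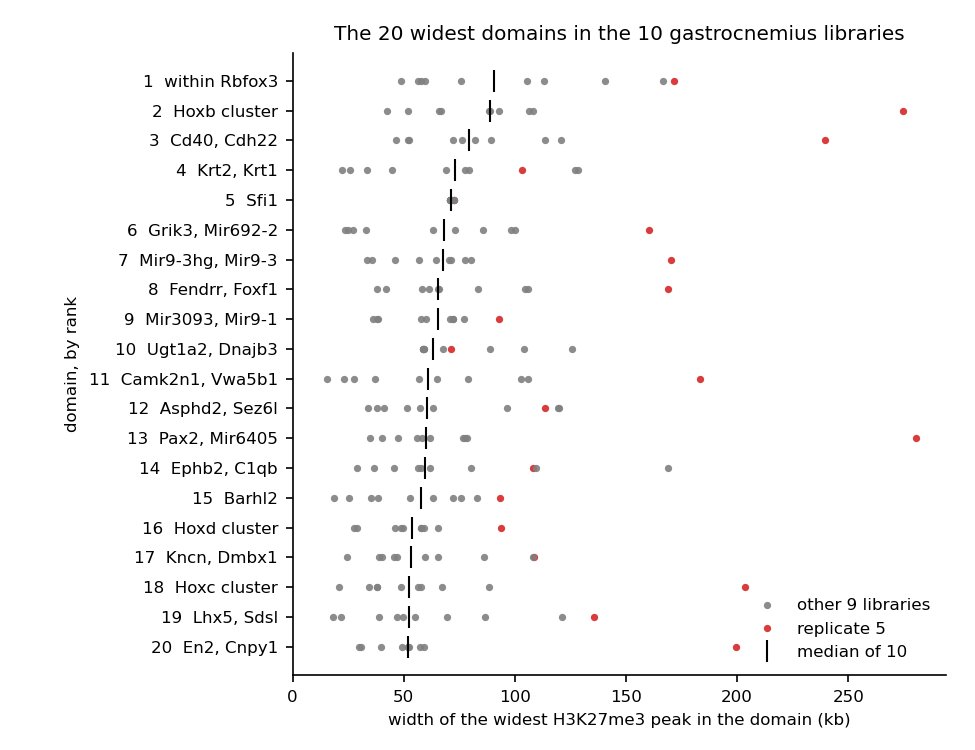
Width of the widest H3K27me3 peak (kb) in each of the 20 widest domains, named by genes with a TSS inside or by the gene span around them. Points are the 10 gastrocnemius libraries, replicate 5 in red, and the black mark is the median, which runs from 90.5 kb in the first domain to 51.8 kb in the 20th.

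No TSS lay in 35 of the domains. Of these, 18 overlapped the span of a transcript and 17 did not, and the nearest TSS was 0.113 to 191.6 kb away, with a median of 26.4 kb. After the domain within Rbfox3, the widest of them were chr4:125166601-125334400, which ended next to the Grik3 domain, and chr4:125669201-125773000, over the end of the Grik3 span (43.3% of its length). The next were a domain within Skap1, chr11:96521601-96762400, beside the Hoxb domain, and chr15:73880201-74079800. H3K4me3 peaks were called in every gastrocnemius library in 13 of the 35.

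Median GC content was 48.8% in the 300 domains, 45.8% in the other regions called in all libraries and 41.9% over the autosomes. The corresponding CpG density was 13.9, 11.3 and 8.51 per kb. Chromosome 4 held 42 of the domains (9.93% of its regions called in all libraries), chromosome 15 held 25 (9.84%) and chromosome 5 held 35 (6.60%). Chromosome 11 held 32 (6.20%), chromosome 19 held 11 (4.95%) and chromosome 2 held 31 (4.94%), against 4.30% over all autosomes.

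A TSS of 668 genes, 475 of them protein coding, lay in the domains, of 24963 autosomal genes. This was 2.37% of autosomal protein-coding genes, and a further 17.7% lay in the other regions called in all 10 libraries. Lists of regulators held larger shares in the domains. Of 9 PAX genes 6 lay there, as did 6 of 9 GATA and ZIC genes (66.7% each). Of 39 Hox cluster genes 25 did (64.1%), in 3 domains, and of 120 other homeobox genes 52 (43.3%), in 47 domains. KLF, nuclear receptor and zinc-finger regulators (14 of 54) and Forkhead genes (9 of 41) followed.

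The T-box genes had another pattern, with 1 of 16 in the domains (Tbx5) and 12 in narrower regions. Genes of signalling ligands of the Wnt, FGF, BMP, TGF and hedgehog families contributed 14 of 72, among them Wnt9b, Wnt3, Bmp7 and Ihh. Ion channel genes contributed 16 of 130, synapse and neuron genes 6 of 38, and receptors of glutamate, GABA, glycine and acetylcholine 3 of 67. No sarcomere or muscle fibre gene (of 40), no protocadherin gene (of 67) and no CDK inhibitor gene (of 7) lay in a domain. At the 2.37% of all protein-coding genes, lists of this size would hold few or none, so these absences are not read as a trait of the lists. These lists were chosen with earlier results known and their shares are descriptive.

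**Figure D3:**
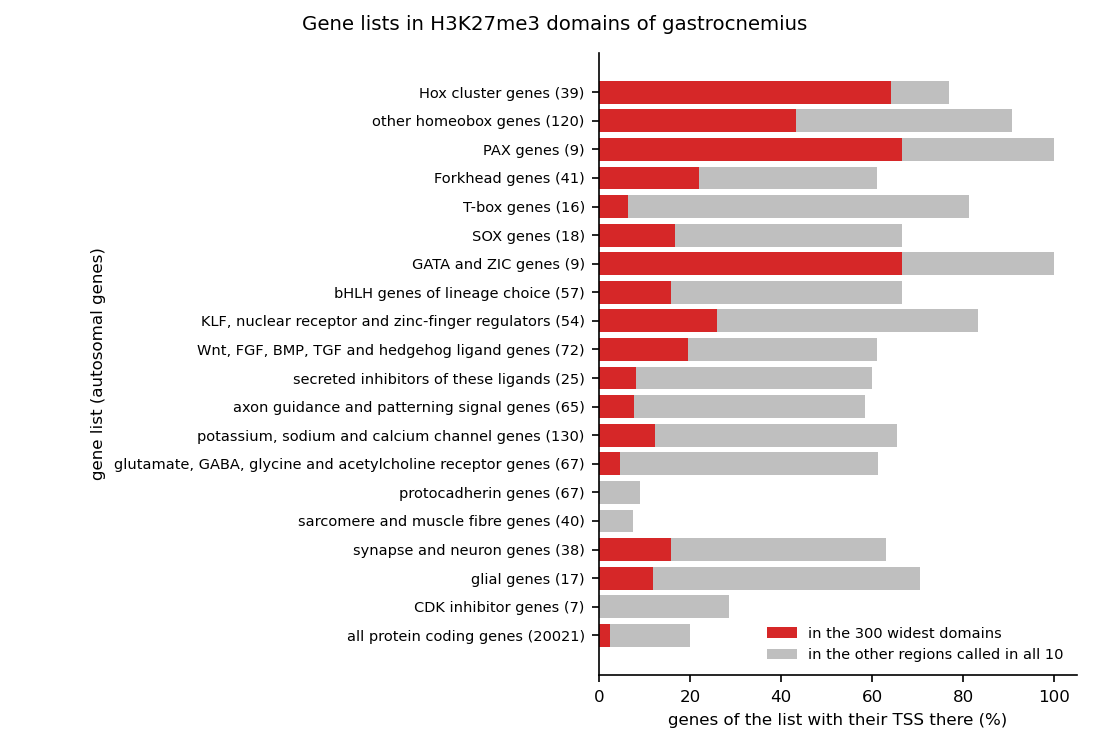
Share of the autosomal genes of each list (number in brackets) whose TSS lay in the 300 widest domains (red) or in the other regions with an H3K27me3 peak in all 10 gastrocnemius libraries (grey). Hox, PAX, and GATA and ZIC genes reach 64.1 to 66.7% in the widest domains, against 2.37% of all protein-coding genes.

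H3K4me3 was called at many of these TSSs in the same tissue. Of the 668 TSSs, 287 (43.0%) had an H3K4me3 peak within 1 kb in every gastrocnemius library and 250 (37.4%) in none, while over all autosomal TSSs the shares were 56.9% and 36.5%. In cortex H3K4me3 was called in every library at 340 of the 668 (50.9%) and in none at 234 (35.0%). H3K27ac was called in every gastrocnemius library at 25.9% and in none at 51.6%, and in every cortex library at 43.3% and in none at 34.1%. H3K27me3 was called in every cortex library at 454 (68.0%). Only the gastrocnemius H3K4me3 shares are set beside all autosomal TSSs here. Whether the other counts of this paragraph are unusual for a TSS cannot be read from them. In the shared part, 228 of 603 TSSs had both an H3K4me3 and an H3K27me3 peak in every gastrocnemius library. H3K27ac was called in every library at 104 of these, in some at 81 and in none at 43. Whether the marks lie on the same nucleosomes or in different cells of the muscle cannot be told apart here. The 65 TSSs at bases covered in fewer than 6 libraries had H3K4me3 in every library at 39 and H3K27ac in every library at 37.

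The H3K4me3 classes differed in their CpG content. TSSs of the shared part with H3K4me3 in every gastrocnemius library had a median of 18 CpGs in the 250 bases upstream (n = 248, quartiles 11 and 26), those called in some libraries 11 (n = 125, quartiles 6 and 18) and those called in none 5 (n = 230, quartiles 2 and 8). The 168 TSSs with no H3K4me3 peak in any library of either tissue had a median of 3. The 197 called in every library of both tissues had a median of 19. The promoters of Cdh22 and Krt2 printed above lie at these opposite ends. H3K4me3 sites in the domains with a peak in every gastrocnemius library had a median of 29.3 CpGs per kb (n = 386), against 25.9 for all H3K4me3 sites in the domains (n = 850) and 22.6 for those called in every cortex and no gastrocnemius library (n = 84).

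Keratin genes made up a large group without H3K4me3. This group was chosen after its values were seen. Of 50 autosomal keratin genes, 27 lay in 6 of the domains, and 26 of these had no H3K4me3 peak in any gastrocnemius library, beside 37.4% of all 668 TSSs in the domains. H3K27ac was called at none of the 27 in gastrocnemius, beside 51.6% of all 668. H3K27me3 was called in every cortex library at 20 of them, a share near the 68.0% of all 668. Their promoters held 1 to 9 CpGs, with a median of 3. In cortex no H3K4me3 peak was called at 26 of the 27 and no H3K27ac peak at 24. Krt77 had H3K4me3 in 7 and H3K27ac in 9 of 9 cortex libraries. Keratins form the intermediate filaments of epithelia, and the part of tissue type in these calls was not tested.

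Within the Hox clusters, marks of activity were found inside the H3K27me3 domains of gastrocnemius. H3K4me3 was called in every gastrocnemius library at 18 of 25 Hox TSSs and H3K27ac at 15, whereas in cortex H3K4me3 was called in every library at 2 and H3K27ac at 0. Over all 668 TSSs in the domains the shares called in every library were 43.0% and 25.9% in gastrocnemius and 50.9% and 43.3% in cortex. H3K27me3 was called at all 25 in every cortex library, beside 68.0% of all 668. Hoxb13, Hoxb1, Hoxd4, Hoxb3 and Hoxd12 had H3K4me3 in 0, 1, 1, 2 and 2 of 10 gastrocnemius libraries, and Hoxb9 to Hoxb4 in all 10. At Hoxc8, Hoxc10, Hoxc9 and Hoxd8 the H3K27me3 peak was missing in some gastrocnemius libraries (called in 4, 6, 7 and 5 of 10) while H3K4me3 was called in all 10. The widest H3K27me3 peak of the Hoxc domain was 52.6 kb in gastrocnemius and 176.2 kb in cortex, as medians over libraries, and that of the Hoxb domain 88.8 and 134.6 kb.

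Of the 52 TSSs of other homeobox genes, H3K4me3 was called in every gastrocnemius library at 35 and in every cortex library at 31, beside 43.0% and 50.9% of all 668 TSSs in the domains. H3K27ac was called in every gastrocnemius library at 8 and in every cortex library at 11, beside 25.9% and 43.3%. It was called in none at 29 in gastrocnemius, a share near the 51.6% of all 668, and at 32 in cortex, beside 34.1%. H3K27me3 was called in every cortex library at 51 of the 52, beside 68.0%. Barhl2, a factor of neural development, had H3K4me3 in all 10 gastrocnemius and 9 cortex libraries and H3K27ac in none. Lhx5, in a domain nearly as wide (a median of 52.4 kb against 58.0 kb), had H3K4me3 in 0 of 10 gastrocnemius and 1 of 9 cortex libraries.

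Other lineage factors differed in the same calls. Foxf1 and Foxc2, Forkhead factors of mesoderm, carried H3K4me3 and H3K27ac in all 10 gastrocnemius libraries. Hand2 and Gata4, factors of heart development, carried H3K4me3 in all 10 but H3K27ac in 1 and 2. Sox2, a factor of neural and pluripotent stem cells, carried H3K4me3 in every library of both tissues, with H3K27ac in 0 of 10 gastrocnemius and 9 of 9 cortex libraries. Olig2 and Olig1, of the oligodendrocyte lineage, had H3K4me3 in 7 and 9 gastrocnemius libraries and H3K27ac in 0, against 9 of 9 for both marks in cortex. Foxa2, of endoderm, had H3K4me3 in 10 and H3K27ac in 0 gastrocnemius libraries, and H3K4me3 in 2 of 9 cortex libraries.

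The lists of ligand, channel and synapse genes differed in their calls in cortex. Among the 14 ligand genes H3K27me3 was called at all TSSs in every cortex library, while among the 16 channel genes it was called in every cortex library at 6 and in none at 3. H3K27ac was called in every cortex library at 14 of these 16 and in every gastrocnemius library at 7. Over all 668 TSSs in the domains, H3K27me3 was called in every cortex library at 68.0%, and H3K27ac at 43.3% in every cortex and 25.9% in every gastrocnemius library. For H3K4me3 the shares were 50.9% in every cortex and 43.0% in every gastrocnemius library. Of the 6 synapse and neuron genes, H3K4me3 was called in every gastrocnemius library at 1 and in every cortex library at 5, H3K27ac at 1 and 4, and H3K27me3 in every cortex library at 4. Slc32a1, the vesicular GABA transporter, and the TSS of Rbfox3 had H3K4me3 in 8 and 3 of 10 gastrocnemius libraries and H3K27ac in 0, with both marks in all 9 cortex libraries. Slit1, an axon guidance ligand, and Shank2, a postsynaptic scaffold, had neither mark in gastrocnemius and both in all 9 cortex libraries. H3K27me3 was called at Slc32a1, Rbfox3 and Slit1 in 9 of 9 cortex libraries as well, and at Shank2 in 7. Nrxn2, a presynaptic adhesion protein, differed from these, with H3K4me3 and H3K27ac in every library of both tissues and H3K27me3 in 1 of 9 cortex libraries. Th, the rate-limiting enzyme of catecholamine synthesis, had H3K4me3 in 0 of 10 gastrocnemius and 1 of 9 cortex libraries and H3K27ac in 0 and 6. Slc6a3, the dopamine transporter, had H3K4me3 in 6 and 9 and H3K27ac in 0 and 2.

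The complement genes of the 14th domain had a like pattern. C1qa, C1qb and C1qc, which microglia and macrophages express, had H3K4me3 in 1, 3 and 4 of 10 gastrocnemius libraries and H3K27ac in 0. In cortex both marks and H3K27me3 were called at all 3 in 9 of 9 libraries. Of 6 marker genes of microglia and macrophages, 3 had H3K4me3 in every cortex library and 0 in every gastrocnemius library, and the part of these cells in the C1q calls was not tested.

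The position used for the miRNA loci is the 5′ end of the hairpin and not a known TSS of the primary transcript. At Mir10a and Mir196a-2, within the Hoxb and Hoxc clusters, H3K4me3 and H3K27ac were called in all 10 gastrocnemius libraries, with H3K4me3 in 2 and 0 of 9 cortex libraries. At Mir10b, in the Hoxd cluster, H3K4me3 was called in 9 and H3K27ac in 2 of the gastrocnemius libraries, and neither in cortex. At Mir196a-1 neither was called in any library of either tissue. At the 3 miR-9 loci both marks were called in all 9 cortex libraries. In gastrocnemius H3K4me3 was called in 10 (Mir9-1), 10 (Mir9-2) and 7 (Mir9-3) of the libraries, and H3K27ac in 10, 0 and 0. At Mir129-2 H3K4me3 was called in 0 of 10 gastrocnemius and 9 of 9 cortex libraries, and at Mir129-1 in none of either. Mir124a-1 and Mir124a-3, of another brain miRNA family, also lay in domains (named after their values were seen) and had H3K4me3 in every library of both tissues.

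In cortex the domains ranged from fully covered by H3K27me3 to free of it. The share of a domain's length covered by cortex H3K27me3 peaks, as the median over 9 libraries, ran from 0 to 100% with a median of 70.6%. Over all domains together, cortex libraries covered 61.0 ± 4.07% of the length (SD, n = 9) and gastrocnemius libraries 82.2 ± 8.80% (SD, n = 10). The gastrocnemius value is the one the domains were chosen on, so the difference was not tested. When the same rule was applied to the 9 cortex libraries, 133 of the 300 gastrocnemius domains (44.3%) overlapped one of the 300 widest cortex domains, which were 23.6 kb or wider, and 146 of the cortex domains (48.7%) overlapped one of gastrocnemius. Of the 20 widest domains of gastrocnemius, 14 did.

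The 6 domains with the least H3K27me3 in cortex lay at Tafa5, Lingo1, Adgrb1, Nrxn2, Mir346 and Mir9-2. That of Tafa5, which encodes a secreted brain protein, had no H3K27me3 peak in any cortex library, and cortex H3K27ac peaks covered 37.8, 64.2 and 72.4% of it in the lowest, median and highest library. Lingo1, a neuronal membrane protein, had a median of 6.14% covered by H3K27me3 and 99.0% by H3K27ac. Adgrb1, an adhesion receptor of the brain, had 8.02% and 54.0%, and Nrxn2 8.84% and 92.0%. The domains at Mir346 and Mir9-2 belonged to the same group (0% and 3.82% under H3K27me3). All 6 had gastrocnemius H3K27ac over a median of at most 24.0% of their length.

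At the other end, after the Sfi1 domain, were the domains at Tbx5 (95.4% covered by cortex H3K27me3), Alx4 (94.6%), Cacna2d2 (94.6%) and Irx1 (94.2%), and a domain without a TSS at chr4:44479401-44552600 (94.3%). Tbx5, Alx4 and Irx1 encode transcription factors of limb, heart and head development, and Cacna2d2 a calcium channel subunit. At Irx1 no H3K27ac peak was called in any library of either tissue. At Cacna2d2 cortex H3K27ac covered a median of 17.5%, and at Tbx5 0.794%.

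H3K27ac in cortex was laid out opposite to H3K27me3 over the domains. In the 33 domains with at most 25% of their length under cortex H3K27me3, cortex H3K27ac covered a median of 55.8% (quartiles 39.9 and 70.8%). In the 53 domains between 25 and 50% it covered 48.5%, in the 85 between 50 and 75% it covered 21.3%, and in the 129 above 75% it covered 3.46% (quartiles 0.917 and 12.5%). In gastrocnemius the medians of the same classes were 3.61, 5.42, 3.56 and 1.84%. Cortex H3K27ac covered more than 50% of 65 domains, and gastrocnemius H3K27ac more than 50% of 6. Over all domains, H3K27ac peaks covered 25.4 ± 3.03% of the length in cortex (SD, n = 9, lowest 18.1% in replicate 9) and 6.69 ± 0.9001% in gastrocnemius (SD, n = 10), with no overlap between the tissues. In the other regions called in all 10 libraries the values were 18.3 and 8.34%. The tissues did not overlap there either, with 12.6 to 20.6% in cortex and 6.66 to 9.55% in gastrocnemius libraries.

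**Figure D4:**
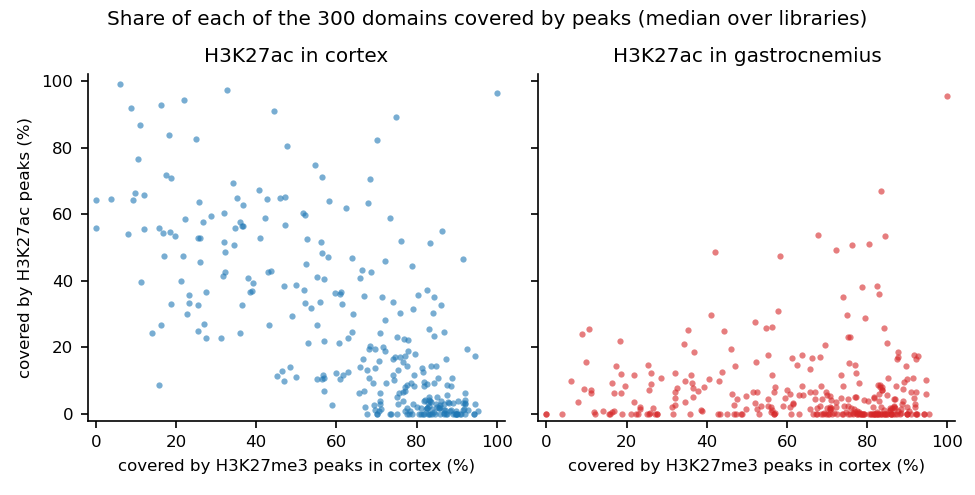
Share of each of the 300 domains covered by H3K27ac peaks in cortex (left) and gastrocnemius (right), against the share covered by H3K27me3 peaks in cortex, all in percent and as medians over libraries; each point is a domain. In cortex H3K27ac coverage is high where H3K27me3 coverage is low (median 55.8% in the lowest class, 3.46% in the highest), and the lone point at the top right of both panels is the Sfi1 domain.

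The domain within Rbfox3 carried both marks in cortex. H3K27me3 peaks covered 50.3, 70.03 and 79.1% of it and H3K27ac peaks 70.8, 82.4 and 88.2% in the lowest, median and highest cortex library. In gastrocnemius H3K27ac covered 2.92, 5.84 and 8.48%. Cortex holds neurons and glia, among other cells.

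H3K4me3 and H3K27ac were then compared between the tissues over sites. The choice of domains used neither mark, but it used H3K27me3 of gastrocnemius alone. H3K27ac occupies the same lysine as H3K27me3, so the direction of its counts in the domains is not independent of that choice. A site is a set of overlapping peaks called in at least 3 libraries of a tissue, and its value is the reads of its peaks per 1 M reads in autosomal peaks after TMM scaling (RPM), with 0 meaning that no peak was called rather than that no read fell there. All autosomal sites were tested together with edgeR's quasi-likelihood test, and a site was called at a Benjamini-Hochberg adjusted p (FDR) below 0.1. Most sites of the genome were called. Sites that passed the filter only through the tissue where they are higher are counted with the rest. Their direction was fixed in advance, so for them the counts of calls are a description.

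Of 850 H3K4me3 sites in the domains, 220 (25.9%) were higher in gastrocnemius and 482 (56.7%) higher in cortex. Over all 28532 sites tested the called shares were 46.8% and 36%. At TSS sites the shares were 28.5% and 57.6% of 368 in the domains, and 31.8% and 48.0% of all 13251. A peak in every gastrocnemius library and in no cortex library was found at 22 of the 850 sites, and the reverse at 84. Over all 28532 sites these patterns were found at 1626 (5.7%) and 1160 (4.07%). Sites higher in cortex lay in 225 domains, sites higher in gastrocnemius in 135, and both kinds in 92. Among the 318 sites with a peak in every library the median log2 fold change, gastrocnemius against cortex, was -0.16 (quartiles -1.50 and 0.36), and over all 13611 such sites of the genome -0.0038. When such sites were tested alone, 103 of the 318 were higher in gastrocnemius and 170 in cortex. Over the genome the counts were 5315 and 5537 of the 13611. With only the libraries whose deposited names carry no run number the counts were 229 and 468.

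The TSS sites with the largest H3K4me3 folds towards gastrocnemius, among called sites with a peak in every gastrocnemius library and no overlap, were at Pax7, Hoxb2, Hoxd10, Tlx1, Evx2, Hoxd11, Adgrd1 and Ankrd53. The sites of this and the next comparisons by fold were picked for that pattern, so where the other tissue had no called peak their values are a description with no test. At Pax7 the value was 36.4, 44.8 and 57.9 RPM in the lowest, median and highest gastrocnemius library, and no peak was called in the 9 cortex libraries. At Hoxb2 it was 33.6, 44.3 and 49.4 RPM, and at Hoxd10 20.4, 24.0 and 37.0 RPM, again with no cortex peak. Tlx1, Evx2 and Hoxd11, all homeobox genes, had medians of 16.1, 13.7 and 11.9 RPM, and Adgrd1, an adhesion receptor gene, and Ankrd53 9.56 and 5.87 RPM, each with a peak in all 10 gastrocnemius and 0 cortex libraries.

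Folds can be given where peaks were called in every library of both tissues, and the sites with the largest ones among those without overlap were picked for this after their values were seen. The site from Hoxd9 to Hoxd3 held 169.8, 186.5 and 223.4 RPM in gastrocnemius and 3.43, 5.60 and 11.9 RPM in cortex, a log2 fold change of 4.82 (FDR 6.6e-16). Pax2, of kidney and eye development, held 60.2, 70.2 and 78.1 RPM against 4.64, 7.19 and 10.5 RPM (log2 3.22, FDR 2.4e-15). Kcna5, a potassium channel, held 55.3, 85.2 and 98.8 RPM against 5.61, 12.4 and 35.3 RPM (log2 2.19, FDR 8.7e-07).

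The 8 TSS sites picked in the same way towards cortex included genes of neuronal function. Slc12a5 held 129.7, 143.0 and 156.1 RPM in the lowest, median and highest cortex library, with no peak in any gastrocnemius library. The orphan receptor Gpr26 held 102.5, 121.6 and 141.1 RPM and the AMPA receptor auxiliary subunit Cacng2 110.3, 122.3 and 128.4 RPM, with the same absence. Srrm4, Add2, a cytoskeletal adducin, Mir129-2 with Mir129b, Rph3a, a synaptic vesicle protein, and Tmem179 had medians of 100.5, 101.4, 98.0, 94.2 and 74.0 RPM, each in 9 of 9 cortex and 0 of 10 gastrocnemius libraries.

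Of the sites with a peak in every library, those with the largest H3K4me3 folds towards cortex, again picked after their values were seen, were at Elfn2, Mir9-3, Cdk5r2 and Dtx1. Elfn2, a postsynaptic adhesion protein, held 4.34, 6.59 and 8.67 RPM in gastrocnemius and 168.4, 183.9 and 202.5 RPM in cortex (log2 -4.79, FDR 1.5e-19). The Mir9-3 site held 4.47, 19.0 and 24.7 against 324.7, 336.4 and 377.6 RPM (log2 -4.29, FDR 5.1e-15). Cdk5r2, an activator of the neuronal kinase CDK5, held a median of 8.10 against 167.1 RPM (log2 -4.23), and Dtx1, a regulator of Notch signalling, 8.13 against 126.2 RPM (log2 -4.002).

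**Figure D5:**
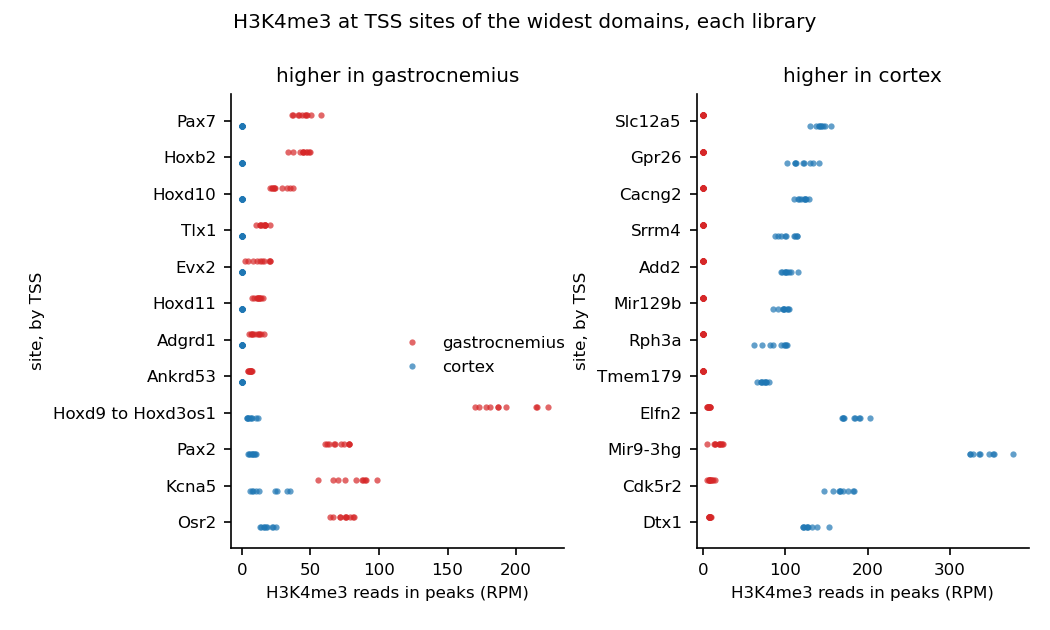
H3K4me3 reads in peaks (RPM) at TSS sites of the domains in each of the 10 gastrocnemius (red) and 9 cortex (blue) libraries, for sites higher in gastrocnemius (left) and in cortex (right); each point is a library and 0 means no called peak. The sites were picked for large folds and for no overlap between the tissues, and the upper 8 of each panel have no peak in the other tissue.

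The shift towards cortex was larger for H3K27ac. Of 1558 H3K27ac sites in the domains, 163 (10.5%) were higher in gastrocnemius and 1228 (78.8%) higher in cortex, while over all 49578 sites tested the called shares were 31.9% and 47.8%. At TSS sites the shares were 15.5% and 71.1% of 349 in the domains, and 37.8% and 42.1% of all 11800. A peak in every cortex library and in no gastrocnemius library was found at 306 of the 1558 sites, and the reverse at 24. Over all 49578 sites these patterns were found at 3914 (7.89%) and 2142 (4.32%). Scaling by DESeq2 size factors, which moved log2 fold changes by 0.92 towards gastrocnemius (median over TSS sites with a peak in every library), gave 258 and 1112 calls in the domains. Over the genome that scaling gave 22287 sites higher in gastrocnemius and 18602 higher in cortex, in place of 15806 and 23722. Among the 248 sites with a peak in every library the median log2 fold change was -0.65 (quartiles -1.83 and 0.12), and 0.0087 over all 12829 such sites. When such sites were tested alone, 58 of the 248 were higher in gastrocnemius and 162 in cortex. Over the genome the counts were 5245 and 5141 of the 12829. Without cortex replicate 9 the counts were 160 and 1237, and with only the libraries without a run number in their names 143 and 1251.

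The H3K27ac TSS sites picked by fold towards cortex were led by those at Add2, Rbfox3 and Pou3f3. The reads of a site are summed over its length, so this choice favours wide sites, and the median width of the 349 TSS sites in the domains was 14.6 kb. The site at Add2 spanned 106.0 kb and held 394.0, 464.2 and 490.5 RPM in the lowest, median and highest cortex library, with no peak in any gastrocnemius library. The site at the TSS of Rbfox3 spanned 97.8 kb (363.4, 438.6 and 465.5 RPM) and the site at Pou3f3, a neural transcription factor, 59.2 kb (202.6, 253.9 and 286.1 RPM). Sez6l, Kcna6, Mpped1 and Crmp1 had medians of 133.7 to 240.0 RPM. Adgrb1, called in every library, held 4.72, 5.37 and 9.82 RPM in gastrocnemius and 228.3, 267.5 and 300.6 RPM in cortex (log2 -5.41, FDR 4.6e-16), and Nsg1, an endosomal protein of neurons, a median of 5.96 against 112.2 RPM (log2 -4.23).

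Of the 8 H3K27ac TSS sites picked by fold towards gastrocnemius, 4 lay in the Hox clusters. A site of 55.4 kb from Hoxb9 to Hoxb3 held 127.1, 173.2 and 209.7 RPM in the lowest, median and highest gastrocnemius library, and no peak was called there in cortex. The site from Hoxd9 to Hoxd4 spanned 30.2 kb and held 69.1, 79.9 and 97.1 RPM. Hoxb2 (39.0 RPM), Pax2 (20.1), Osr2, of connective tissue and kidney development (15.2), Pax7 (13.5), Hoxd10 (9.14) and Lhx1 (8.37) followed, by their medians. Of the sites with a peak in every library, again picked after their values were seen, one of 84 kb at Gpr142, most of it beyond the end of the domain, held a median of 194.3 RPM in gastrocnemius and 52.1 RPM in cortex (log2 1.98, FDR 2.8e-11), and one at Irx5, a homeobox gene, held a median of 26.2 RPM in gastrocnemius and 7.45 RPM in cortex (log2 1.82, FDR 3.3e-11).

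Of all TSS sites in the domains, 28.5% were higher in gastrocnemius and 57.6% in cortex for H3K4me3, and 15.5% and 71.1% for H3K27ac. The gene lists are given by counts of genes, and since neighbouring genes of a cluster share sites, the Hox genes are also given by separate sites. Of the 25 Hox genes in the domains, 22 had an H3K4me3 site, which was higher in gastrocnemius at 21 and in cortex at 0, and 18 had an H3K27ac site, higher in gastrocnemius at 17 and in cortex at 0. These genes lay on 11 separate H3K4me3 sites, 10 of them higher in gastrocnemius, and on 6 H3K27ac sites, 5 of them higher in gastrocnemius. No cortex library had an H3K4me3 peak within 1 kb at 18 of the 25 Hox TSSs, or an H3K27ac peak at 24. In this and the other lists, sites without a peak in the other tissue had their direction fixed by the filter, and their counts are a description. For other homeobox genes the calls went both ways, with 24 higher in gastrocnemius and 12 in cortex of 47 with an H3K4me3 site (24 and 10 of 45 separate sites). Of 9 Forkhead genes with an H3K4me3 site, 7 were higher in gastrocnemius and 1 in cortex. Ion channel genes were higher in cortex at 12 of 13 with an H3K4me3 site. For H3K27ac they were so at 13 of 16, not far above the 71.1% of all TSS sites in the domains. The 5 synapse and neuron genes with a site were higher in cortex at all 5 for both marks. Signalling ligands had H3K4me3 higher in gastrocnemius at 4 and in cortex at 7 of 14, both near the shares of all TSS sites in the domains. H3K4me3 was higher in cortex at 3 of 3 SOX genes (Sox1, Sox2 and Sox8) and at 4 of 7 bHLH genes, the latter close to the share of all TSS sites in the domains. Scaling by DESeq2 size factors gave H3K27ac calls at 5 Forkhead genes higher in gastrocnemius in place of 3, and at 2 ligand genes in place of 0, with 8 ligand genes higher in cortex in place of 11. The Hox counts were the same under it.

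A small number of domains carried wide H3K27ac in gastrocnemius itself, and they were named after their values were seen. Besides those at Sfi1 and at the Ugt1a genes, of glucuronidation, H3K27ac covered over 50% of the domains at Gata2 (a median of 67.0%), Wnt10b and Wnt1 (53.9%), Cbx8 (51.1%) and Wnt6 and Wnt10a (50.7%). Gata2 is a regulator of blood and endothelial cells, and Cbx8 is itself a subunit of Polycomb repressive complex 1. The Gata2 domain was the shortest merged region, 30.0 kb, and was also covered by H3K4me3 over 50.7, 56.7 and 69.3% of its length in the lowest, median and highest gastrocnemius library. H3K27me3 covered 82.7, 94.3 and 100% of it in the same tissue.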

How the data were processed

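Chromatin was profiled in 57 libraries. Reads had been placed on mm10 by BWA and freed of low-quality alignments and duplicates by SAMtools, and the authors called peaks library by library with epic2 in windows of 200 bp, without an input library and without pooling. Up to 2 empty windows were bridged for H3K4me3 and H3K27ac and up to 3 for H3K27me3, at an FDR of 0.05. The sources used here give no version of epic2. The deposited peak lists give the start, the end, the read count (counts per peak, not normalized) and a score that the authors' caller assigned to each peak. Peak width is the end minus the start. Without an input, regions of high background cannot be told apart from peaks.

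From these files the domains, their coverage by peaks and the calls within 1 kb of each TSS were computed in Python 3.11.15 with pandas 2.3.3 and numpy 2.4.6. TSSs, base composition and sequences came from RefSeq on GRCm38.p6, to which all peak coordinates fitted. Of the 603 TSSs of the shared part, 409 matched the promoter table by gene ID. Counts of peaks overlapping a consensus site (peaks in at least 3 libraries of a tissue) were summed per library and tested between tissues with edgeR 4.0.16 in R 4.3.3 (TMM scaling, quasi-likelihood, 10 gastrocnemius against 9 cortex libraries, all autosomal sites, FDR below 0.1). The scripts were tested on simulated data. DESeq2 1.42.0 served as an alternative, and the others were different rankings, scalings, filters, windows and libraries.

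The animal codes in the deposited names pair 9 mice over both tissues. The correlation of paired deviations from the group means was -0.0041 to 0.050 for H3K4me3 and -0.020 to 0.037 for H3K27ac, with 0 of 9 pairs over 0.1. The study used mice of both sexes, so male and female mice are pooled within each group. The labels do not give the sex of each library, which was therefore not compared. Each library is taken as 1 mouse.

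Named genes were those with a TSS in the 20 widest domains, those next to the threshold, up to 4 per gene list, those of the 6 domains lowest and the 6 highest in cortex H3K27me3, and 8 TSS sites per mark and direction. The last had the largest fold changes among called sites with a peak in every library of the higher tissue and no overlap. The 5 widest domains without a TSS were added. Some items that this rule names are not reported here. The domains, gene lists and comparisons were chosen with earlier results of these data known.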

Additional observations from a re-analysis of the deposited data

Results flagged for a closer look

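Dixon's criterion at the 95% level was applied to 99 groups of values from 9 or 10 libraries. In 12 of them a library lay apart from the rest. Chance gives about 1 in 20 for independent groups, but these groups share libraries, so the number is not set against chance. The gastrocnemius H3K27me3 widths chose the domains, and their flags are a description with no test. Gastrocnemius H3K27me3 replicate 5 had 18.2 M (1 M is 1000000) reads in autosomal peaks, against 2.99 to 7.54 M in the other 9 libraries. Its median widest peak over the domains was 68.1 kb, against 20.6 to 42.6 kb. Its widest peak measured 274.8 kb in the Hoxb domain (42.4 to 108.4 kb in the others), 239.4 kb in the Cd40 and Cdh22 domain (46.4 to 120.8 kb) and 170.2 kb in the Mir9-3 domain (33.4 to 80.2 kb). In the Foxf1 domain it measured 168.8 kb (38.2 to 106.0 kb), in the Pax2 domain 280.6 kb (34.8 to 78.6 kb), in the Hoxc domain 203.4 kb (20.8 to 88.6 kb) and in the En2 domain 199.4 kb (29.8 to 59.0 kb). The part of read number in these widths was not tested.

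Cortex H3K27ac replicate 9 had 3.90 M reads in autosomal peaks, against 14.3 to 21.0 M in the other 8 libraries, and its peaks covered 18.1% of the domain length, against 24.1 to 28.2%. Gastrocnemius H3K27ac replicate 6 had 27.04 M reads in autosomal peaks, against 15.6 to 21.0 M.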

How the results depend on the processing

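The choice of domains depended most on how width was measured. Ranking by the summed length of peaks kept 165 of the 300 domains and ranking by the merged region 144. Leaving out each library in turn kept 269 to 282, and leaving out the lowest 25% of scores, or taking equally many top-scoring peaks per library, kept all 300. Ranking on the libraries without a run number in their names kept 234, and on those with one 225 (chosen after seeing the data). The H3K4me3 counts of 220 and 482 sites moved by over 1.5 times under 1 alternative. There only sites with a peak in every library were tested and fewer sites were left (103 and 170). The share higher in gastrocnemius was then 37.7% of calls in the domains and 49.0% of all calls, in place of 31.3% and 56.5%. For H3K27ac that alternative gave 58 and 162. The H3K27ac share higher in gastrocnemius was then 26.4% of calls in the domains and 50.5% of all calls, in place of 11.7% and 40.0%. A minimum of 20 reads gave 625 H3K27ac sites higher in cortex. DESeq2 size factors, or DESeq2 itself, gave 258 H3K27ac sites higher in gastrocnemius, and the cause was not tested. With the animal as a replicate block the counts were 187 and 412 for H3K4me3 and 124 and 938 for H3K27ac. With a window of 3 kb, 313 TSSs had H3K4me3 in every gastrocnemius library and 229 in none. The alternatives without the Sfi1 domain, without cortex replicate 9 and with the shared part alone were also chosen after seeing the data. A site without a called peak may still hold reads, and how many depends on the depth of the library.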
